A study of Mus musculus with 6 samples.

Results

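Integrin subunit genes and the integrin-like gene Itgbl1 were compared between untreated TC-1/A9 cultures and cultures given inhibitors of both DNA methyltransferases and histone deacetylases. In the treated cells Itga5, the alpha chain of the fibronectin receptor, was 4.88-fold lower, and Itgbl1 was 8.10-fold lower. Itga3, Itgb7 and the brighter probe of Itgav were each between 1.61-fold and 1.65-fold higher. The brighter probes of Itgb1 and Itgb4 and the only probe of Itgb5 did not pass the test. The dimmer probes of Itgav and Itgb4 were lower, by 1.61-fold and 1.42-fold.

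The set was a list of 10 symbols, namely Itga3, Itga5, Itga6, Itgav, Itgb1, Itgb3, Itgb4, Itgb5, Itgb7 and Itgbl1. Members were selected on measured values: the symbols were listed with differences between treated and untreated cells already known, and their probes were chosen by a detection p-value of at most 0.01 on at least 1 of 6 arrays. The adjusted p-values given for the members therefore state where each probe stood in the fit over the whole array and are not independent evidence. Of the 10 symbols, 8 had a named probe that was detected, with 12 probes in all among the 17445 probes and 9192 genes tested. Itga6 and Itgb3 had no probe under these names in the annotation used here and were not analysed here. All 12 probes were far from the limit of detection, with a deposited detection p-value of 0 on all 6 arrays, so that no member entered through 1 group only.

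TC-1/A9 is a mouse tumour cell line of C57BL/6 background, grown in culture. The untreated group consisted of 3 cultures that received no inhibitor. The DAC/TSA group consisted of 3 cultures kept in 3 μM 5-aza-2′-deoxycytidine (DAC), an inhibitor of DNA methyltransferases, for 48 h and then with 30 ng/ml trichostatin A (TSA), an inhibitor of histone deacetylases, for a further 24 h. Both groups were the same line, so the comparison is between treatments of 1 line. Because both drugs were given to the same cultures, the share of each in a difference cannot be told apart. The samples are described as biological replicates, and each was measured on 1 Illumina Mouse WG-6 bead array.

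The 6 arrays had between 14704 and 15783 probes detected, and arrays of 1 group correlated at r = 0.992 or above over the kept probes. All signals below are log2 values of quantile-normalised intensity, differences are DAC/TSA minus untreated on that log2 scale, and means are given ± SD with n = 3 arrays. The number of arrays limits the precision of each value. Lower RNA per cell and fewer cells with the RNA cannot be told apart in such bulk samples. A gene with several probes was represented by its brightest one, and a difference was called when its adjusted p was at most 0.01 (limma, Benjamini-Hochberg adjustment over all probes). Levels of different probes were not set against each other, because bead probes differ in brightness for the same amount of RNA.

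Integrins are receptors that join the cell to its surroundings. Each is a pair of 1 alpha and 1 beta chain, and the pairing sets the ligand. The Itga5 alpha chain with the Itgb1 beta chain binds fibronectin, and the Itga3 and Itgb1 pair binds laminins. Itgav pairs with several beta chains to bind vitronectin, fibronectin and latent TGF-beta. Itgb4 with Itga6 forms the core of the hemidesmosome, which anchors epithelial cells to the basement membrane. Inside the cell, talin and kindlin bind the beta tail and activate the receptor, and a scaffold of kinases and adaptors, the focal adhesion, couples it to actin. Itgbl1 is a secreted protein with EGF-like repeats that resemble those of beta chains, and it does not itself pair with an alpha chain.

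Promoter sequences are shown for the 4 genes with a single direction of difference, because DAC acts on the methylation of CpG dinucleotides. They run from 250 bases before to 50 bases after the RefSeq start (mouse build GRCm38.p6), in the direction of transcription, and capitals mark each CpG. Itga3 lies at chr11:95076665-95076964 on the minus strand, Itga5 at chr15:103366742-103367041 on the minus strand, Itgb7 at chr15:102231886-102232185 on the minus strand and Itgbl1 at chr14:123659890-123660189 on the plus strand. Both of the genes that were higher, Itga3 and Itgb7, come first.
Itga3: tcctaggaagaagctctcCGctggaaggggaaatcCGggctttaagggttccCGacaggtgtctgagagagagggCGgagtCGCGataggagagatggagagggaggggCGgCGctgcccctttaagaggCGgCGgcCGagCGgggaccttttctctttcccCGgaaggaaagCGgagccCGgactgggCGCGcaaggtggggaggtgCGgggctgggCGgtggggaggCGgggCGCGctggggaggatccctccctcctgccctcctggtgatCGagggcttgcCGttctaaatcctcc
Itgb7: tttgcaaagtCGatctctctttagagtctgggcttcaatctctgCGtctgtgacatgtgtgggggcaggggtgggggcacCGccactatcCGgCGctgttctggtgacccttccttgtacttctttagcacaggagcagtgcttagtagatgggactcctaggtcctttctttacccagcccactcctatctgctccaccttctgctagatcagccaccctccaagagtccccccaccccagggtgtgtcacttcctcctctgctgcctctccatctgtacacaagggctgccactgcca
Itga5: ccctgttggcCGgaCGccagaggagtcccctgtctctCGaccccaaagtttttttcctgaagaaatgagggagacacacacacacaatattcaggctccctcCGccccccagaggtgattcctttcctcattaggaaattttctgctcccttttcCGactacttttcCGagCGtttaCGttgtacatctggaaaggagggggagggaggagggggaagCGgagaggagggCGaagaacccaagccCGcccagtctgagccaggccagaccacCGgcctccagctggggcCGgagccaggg
Itgbl1: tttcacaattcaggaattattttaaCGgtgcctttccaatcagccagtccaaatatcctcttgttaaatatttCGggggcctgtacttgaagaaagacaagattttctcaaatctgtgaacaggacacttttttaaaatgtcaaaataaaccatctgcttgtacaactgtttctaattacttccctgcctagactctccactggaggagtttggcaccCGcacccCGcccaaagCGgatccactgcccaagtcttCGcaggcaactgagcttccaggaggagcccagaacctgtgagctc

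The CpG counts describe these 4 windows, and their part in the differences was not tested. For Itga3 the entry with more CpG is the one printed. The Itga3 window held 24 CpG dinucleotides, and 20.0% of the 32851 promoters in the RefSeq table had at least as many. The Itgb7 window held 5 CpG (62.0% of promoters had at least as many), that of Itga5 held 13 (37.9%) and that of Itgbl1 held 6 (56.4%), against a median of 7 in the table. Of the 8 measured members, 7 had a promoter entry, all but Itgb4. Itgav had 24 CpG, Itgb1 27 and Itgb5 20, while a second entry for Itga3 had 5. The GC box, searched as GGGCGG on both strands, was present in 35.7% of all promoters. It occurred in the windows of all these genes except Itgb7, with 3 matches for Itga3, 2 for Itga5 and 1 for Itgbl1. The motif TGANTCA, whose matches were counted on both strands and which 7.81% of promoters held, was found only in the second Itga3 entry. DNA methylation was not measured on these arrays, and a match of letters is a description of the window.

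Over the 7 measured integrin subunits of the set, 3 genes were higher (Itga3, Itgav and Itgb7), 1 was lower (Itga5) and 3 did not pass. Among all 9192 genes 22.5% were called higher and 21.4% lower, 43.9% in either direction, so that 4 of 7 called genes (57.1%) has to be read against a background in which a large part of the array moved. Nothing is read from these counts, because the members were listed with the contrast known. The median difference of the 7 genes was 0.0035, beside 0.014 over all genes. Counted by probe, 3 of the 11 subunit probes were higher and 4 were lower, where 19.3% of all probes were called higher and 19.3% lower. Probes of 1 gene are not separate genes, and the lower probes came from Itga5 (both probes) and from the dimmer probes of Itgav and Itgb4.

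**Figure D1:**
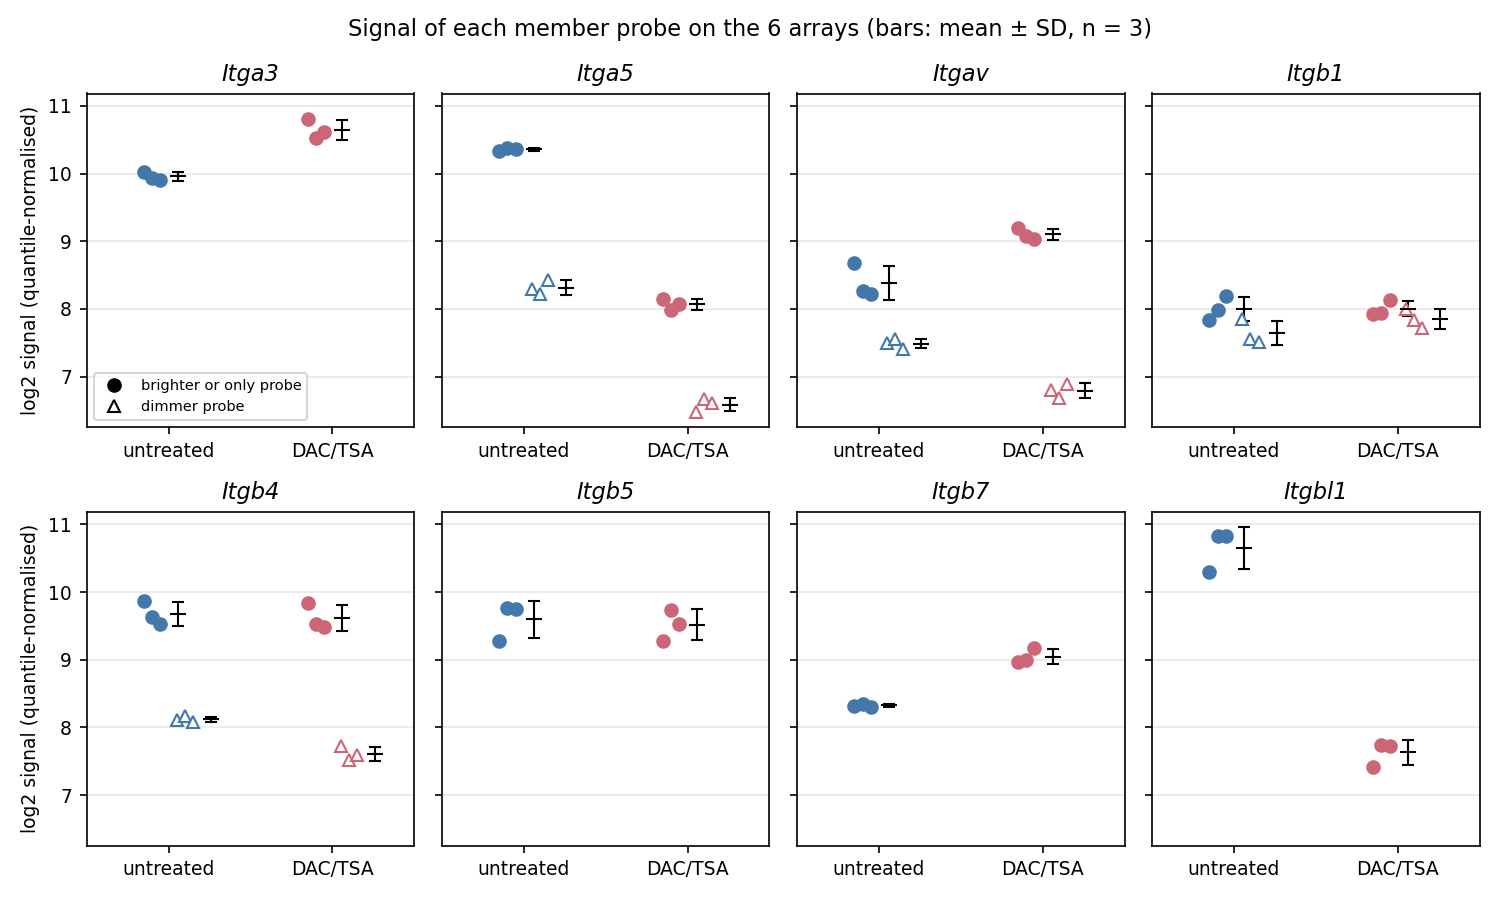
Log2 signal (quantile-normalised, vertical axis) of each member probe on the 3 untreated (blue) and 3 DAC/TSA (red) arrays, with mean and SD as bars; filled circles are the brighter or only probe of a gene and open triangles the dimmer probe. The groups stand apart for Itga3, Itga5, Itgav, Itgb7, Itgbl1 and the dimmer Itgb4 probe, with opposite directions for the Itgav probes. They overlap for Itgb5, both Itgb1 probes and the brighter Itgb4 probe.

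Itga5, the alpha chain that pairs with the product of Itgb1 to form the main fibronectin receptor, gave log2 signals of 10.33, 10.38 and 10.36 for the untreated cultures and 8.15, 7.98 and 8.07 for the treated ones with its brighter probe. The 3 treated arrays lay together, more than 2 log2 units below every untreated array. The mean went from 10.36 ± 0.03 to 8.07 ± 0.08, a difference of -2.29 (SE 0.08), or 4.88-fold lower with a 95% confidence interval of 4.31 to 5.53 (adjusted p = 2.24e-08). The second Itga5 probe read 8.29, 8.21 and 8.43 in untreated cells and 6.48, 6.68 and 6.61 after DAC/TSA. It was thus lower as well, by 3.31-fold (95% confidence interval 2.87 to 3.81, adjusted p = 2.74e-07). Ordered from the steepest fall, the Itga5 difference ranked 17 among the 9192 genes. The differences of the 2 Itga5 probes themselves differed by -0.56 on the log2 scale (exact two-sided permutation p = 0.1, the smallest that 3 against 3 arrays allow).

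Itga3, the alpha chain of a laminin receptor, differed in the other direction. Its probe read 10.03, 9.94 and 9.91 in the untreated cultures and 10.80, 10.52 and 10.61 in the treated ones. Every treated array was above every untreated array. The mean rose from 9.96 ± 0.06 to 10.64 ± 0.14, which is 1.61-fold (95% confidence interval 1.39 to 1.86, log2 difference 0.69, SE 0.09, adjusted p = 1.54e-04).

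Itgav, the alpha chain shared by the vitronectin and latent TGF-beta receptors, had 2 probes that moved in opposite directions. The brighter one, assigned to the RefSeq transcript, read 8.67, 8.26 and 8.22 without treatment and 9.19, 9.08 and 9.04 with it. It rose 1.64-fold (95% confidence interval 1.36 to 1.97, log2 difference 0.71, SE 0.12, adjusted p = 6.25e-04). Replicate 1 was the highest of the untreated arrays, and the groups did not overlap.

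The dimmer Itgav probe, which the annotation ties to a separate cDNA entry, read 7.49, 7.55 and 7.41 in the untreated group against 6.80, 6.68 and 6.89 in the DAC/TSA group. It fell 1.61-fold (95% confidence interval 1.41 to 1.84, log2 difference -0.69, SE 0.09, adjusted p = 9.13e-05), again without overlap. The change of the brighter probe exceeded that of the dimmer one by 1.40 on the log2 scale. An exact two-sided permutation test over the arrays gave p = 0.1 for this, the smallest value that 3 against 3 arrays allow. It was 0.125 after Benjamini-Hochberg adjustment over the 5 genes compared in this way (Itga5, Itgav, Itgb1, Itgb4 and Itgb1bp1). Such a test cannot reach the threshold of 0.01. With the mean of both probes in place of the brighter one, Itgav differed by 0.01 (adjusted p = 0.908), so the call for this gene rests on which probe stands for it. The position of the probes in the transcript is not given in the sources used here.

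Itgb1, the common beta chain with which most alpha chains of matrix receptors pair, gave overlapping groups with both probes. The brighter read 7.83, 7.98 and 8.19 in untreated cells and 7.93, 7.94 and 8.13 after DAC/TSA, a difference of 0.0035 (95% confidence interval -0.23 to 0.24, adjusted p = 0.982). The dimmer read 7.85, 7.56 and 7.52 and then 8.001, 7.83 and 7.71, a difference of 0.21 (95% confidence interval -0.04 to 0.46, adjusted p = 0.148). The changes of the 2 Itgb1 probes differed by -0.20 (exact permutation p = 0.5). Within each replicate number the dimmer probe was higher in the treated culture, by 0.15, 0.28 and 0.19, and with the number as a block it still did not pass (95% confidence interval 0.056 to 0.36, adjusted p = 0.0210). The intervals bound any difference of Itgb1 at 0.46 on the log2 scale in either direction, whereas both probes of its partner Itga5 differed by more than 1.5.

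Itgb4, the beta chain of the hemidesmosome, read 9.87, 9.63 and 9.53 in untreated and 9.84, 9.53 and 9.48 in treated cells with its brighter probe. The difference was -0.06 (95% confidence interval -0.33 to 0.21, adjusted p = 0.697) and the groups overlapped almost completely. The other probe, assigned to a different Itgb4 transcript record, read 8.11, 8.16 and 8.08 and then 7.73, 7.52 and 7.59, which is 1.42-fold lower (95% confidence interval 1.25 to 1.62, adjusted p = 5.93e-04). The changes of the 2 probes differed by 0.45 (exact permutation p = 0.1, the smallest possible, and 0.125 after the same adjustment over 5 genes). The Itgb4 mean over both probes differed by -0.28 (adjusted p = 0.0216) and was not called.

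Itgb5, a partner of Itgav in a vitronectin receptor, read 9.27, 9.76 and 9.76 in untreated cells and 9.28, 9.74 and 9.53 in treated cells. In both groups the array of replicate 1 was the lowest, and the groups overlapped. The difference was -0.08 (95% confidence interval -0.41 to 0.25, adjusted p = 0.681). A fold change of more than 1.33 in either direction lay outside this interval.

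Itgb7 encodes the beta chain of leukocyte integrins, which pairs with Itga4 in a gut homing receptor and with Itgae in a receptor for E-cadherin. It read 8.32, 8.35 and 8.30 on the untreated arrays, which were nearly identical, and 8.97, 8.99 and 9.17 on the DAC/TSA arrays. The mean rose from 8.32 ± 0.02 to 9.05 ± 0.11, or 1.65-fold (95% confidence interval 1.45 to 1.88, log2 difference 0.72, SE 0.085, adjusted p = 5.68e-05). Itgb7 was thus well above the limit of detection in untreated cells.

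Of 15 leukocyte markers, 6 had a named detected probe. Coro1a, Laptm5, Lyz2 and Fcer1g were higher and Cd79b and Cd14 were lower. Laptm5, Lyz2 and Fcer1g were detected on treated arrays only and Cd79b on untreated arrays only. The direction of these genes was thus fixed by the detection filter. The summed linear signal of the 6 was 527 to 547 in untreated and 582 to 607 in DAC/TSA cells. The defining markers Ptprc, Itgb2, Cd3e and Csf1r had no named detected probe here and so gave no level. The part of these markers in the Itgb7 result was not tested.

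**Figure D2:**
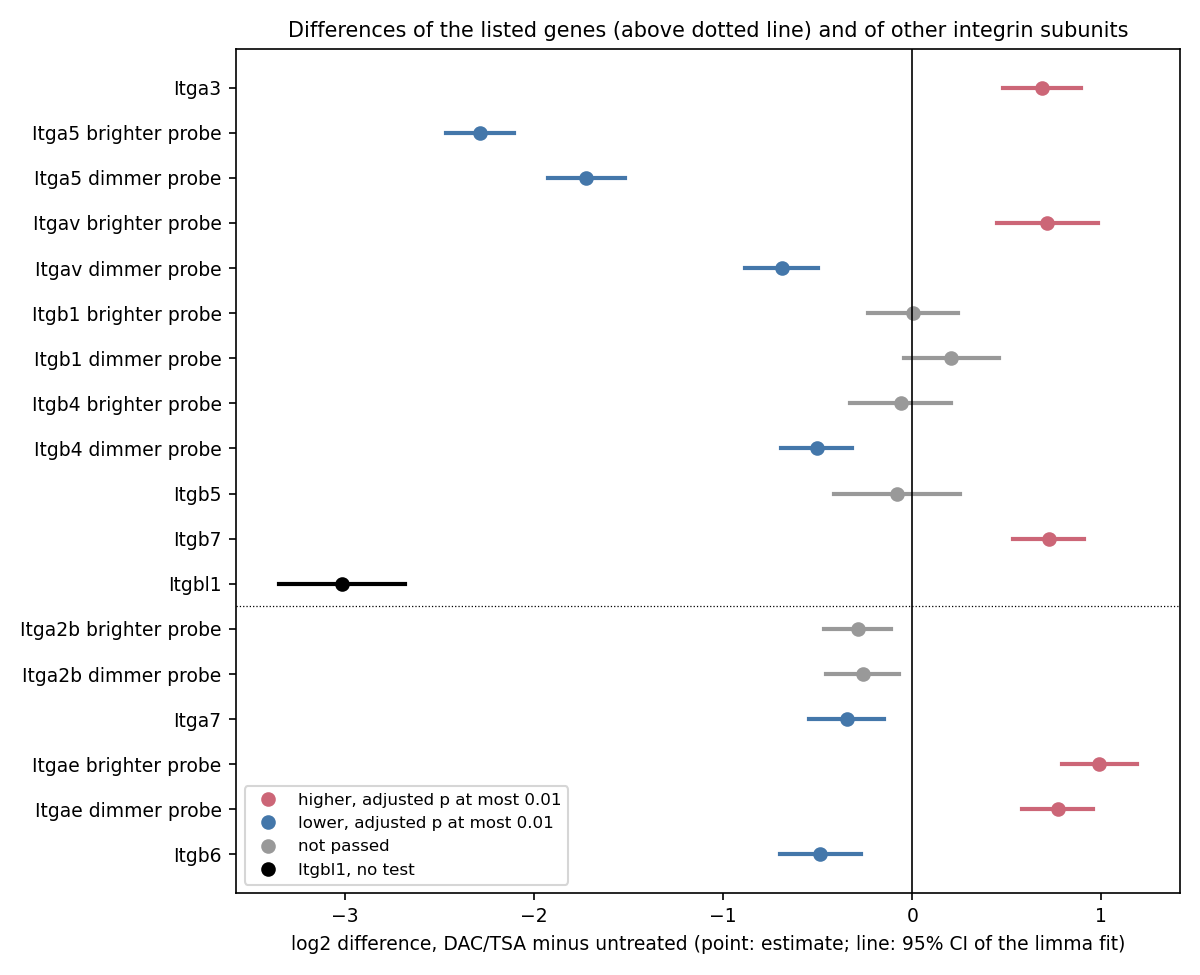
Log2 difference (DAC/TSA minus untreated, horizontal axis) of each probe of the listed genes and of 4 other integrin subunits, as estimate and 95% confidence interval of the limma fit (n = 3 arrays per group), coloured by call and with Itgbl1, which was not tested, in black. The brighter Itga5 probe at -2.29 and Itgbl1 at -3.02 lie far to the left, and Itga3, Itgb7 and the brighter Itgav probe lie near 0.7. The intervals of Itgb5, both Itgb1 probes and the brighter Itgb4 probe cross 0.

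Itgbl1 was listed for its known steep difference, so its values are a description. Its probe read 10.29, 10.83 and 10.82 in untreated cells and 7.42, 7.74 and 7.73 after DAC/TSA. In both groups the array of replicate 1 was the lowest, and within each number the treated array lay about 3 log2 units below its untreated counterpart. The mean went from 10.65 ± 0.31 to 7.63 ± 0.18, a difference of -3.02 (SE 0.15), or 8.10-fold lower (95% confidence interval 6.43 to 10.2). Ordered from the steepest fall, it ranked 2 among 9192 genes, and the treated cells still gave a signal detected on all 3 arrays.

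The genes whose 6 mean-centred log2 values lay nearest to those of Itgbl1, by Euclidean distance over the 6 arrays, were Cp, Chrna1 and Adcy8. Cp, which encodes the copper-carrying ferroxidase ceruloplasmin, lay at a distance of 0.446 and was 8.05-fold lower in treated cells (8.97 ± 0.06 to 5.96 ± 0.03). Its treated signals were detected but close to the detection floor, which limits its fold and its distance. The Cp difference was -3.01 as reported, -3.66 with neqc background correction and -2.55 with the mean of its probes. Chrna1, the alpha chain of the muscle acetylcholine receptor, lay at 0.475 and was 6.22-fold lower (11.30 ± 0.31 to 8.67 ± 0.13). Adcy8, an adenylyl cyclase, lay at 0.529 and went from 8.35 ± 0.22 to 5.72 ± 0.22. It was detected on only 1 of the 3 treated arrays, so that its fold and its distance are limited by the detection floor. As for Itgbl1, replicate 1 was the lowest array of both groups for Chrna1 and Adcy8. These 3 were picked by their likeness to Itgbl1 and carry no test.

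The mouse list of integrin subunits held 26 genes, of which 11 were measured, and 4 of these were outside the set. Itgae, the alpha partner of Itgb7 in the E-cadherin receptor, was not detected on any untreated array (5.73, 5.48 and 5.65) and was detected on all DAC/TSA arrays (6.66, 6.60 and 6.58). It was at least 1.71-fold higher, the bound being set by the lowest detected signal of each untreated array (adjusted p = 8.96e-06), and its second probe at least 1.47-fold higher (adjusted p = 3.52e-05). Both Itgae probes were kept only through the DAC/TSA arrays, so their direction was fixed by the detection filter, and the level stayed close to the detection limit.

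Itgb6, a partner of Itgav that binds latent TGF-beta in epithelia, went the other way. It read 5.93, 6.18 and 6.07 on the untreated arrays and was not detected on any DAC/TSA array (5.45, 5.67 and 5.61), and was at least 1.23-fold lower (adjusted p = 0.00175). Itga7, the alpha chain of a laminin receptor of muscle, was 1.27-fold lower (7.73 ± 0.06 to 7.38 ± 0.13, adjusted p = 0.00817). Both calls were lost when arrays were scaled to a common median. That of Itga7 was also lost with neqc background correction (adjusted p = 0.0128), with the robust trended fit (0.0101), without untreated replicate 2 (0.0383) or 3 (0.0199) and without DAC/TSA replicate 2 (0.0436) or 3 (0.0284).

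Itga2b, the alpha chain of the platelet fibrinogen receptor, read 6.55, 6.62 and 6.54 and then 6.21, 6.31 and 6.32. The difference of -0.29 lay just beyond the threshold (adjusted p = 0.0107) and passed it in 5 alternatives, namely the replicate number as a block (0.00348), the mean of its probes (0.00484), neqc background correction (0.00672), the filter of at least 3 arrays (0.00939) and the deposited log2 values (0.00965). The 3 platelet markers measured, Itga2b itself included, had a summed linear signal of 208 to 222 in untreated and 192 to 204 in treated cells, and none was called. Altogether 4 of the 11 measured subunits were higher, 3 lower and 4 not passed, where 43.9% of all genes were called in either direction. Among them, Itgae was kept only through the DAC/TSA arrays and Itgb6 only through the untreated ones, which fixed their directions.

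The genes around the integrins were grouped by role into 5 lists of 102 genes in all, of which 67 were measured. Of these 8 were higher, 33 lower and 26 not passed, where 22.5% of all genes were called higher and 21.4% lower. The median difference was -0.35, beside 0.014 over all genes. With arrays scaled to a common median instead of quantiles, 17 were lower, where 8.44% of all genes were lower under that scaling. Without untreated replicate 3 the number called higher was 5, where 18.1% of all genes were higher. The lists were drawn up with earlier results of these data known, so the counts describe these genes.

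**Figure D3:**
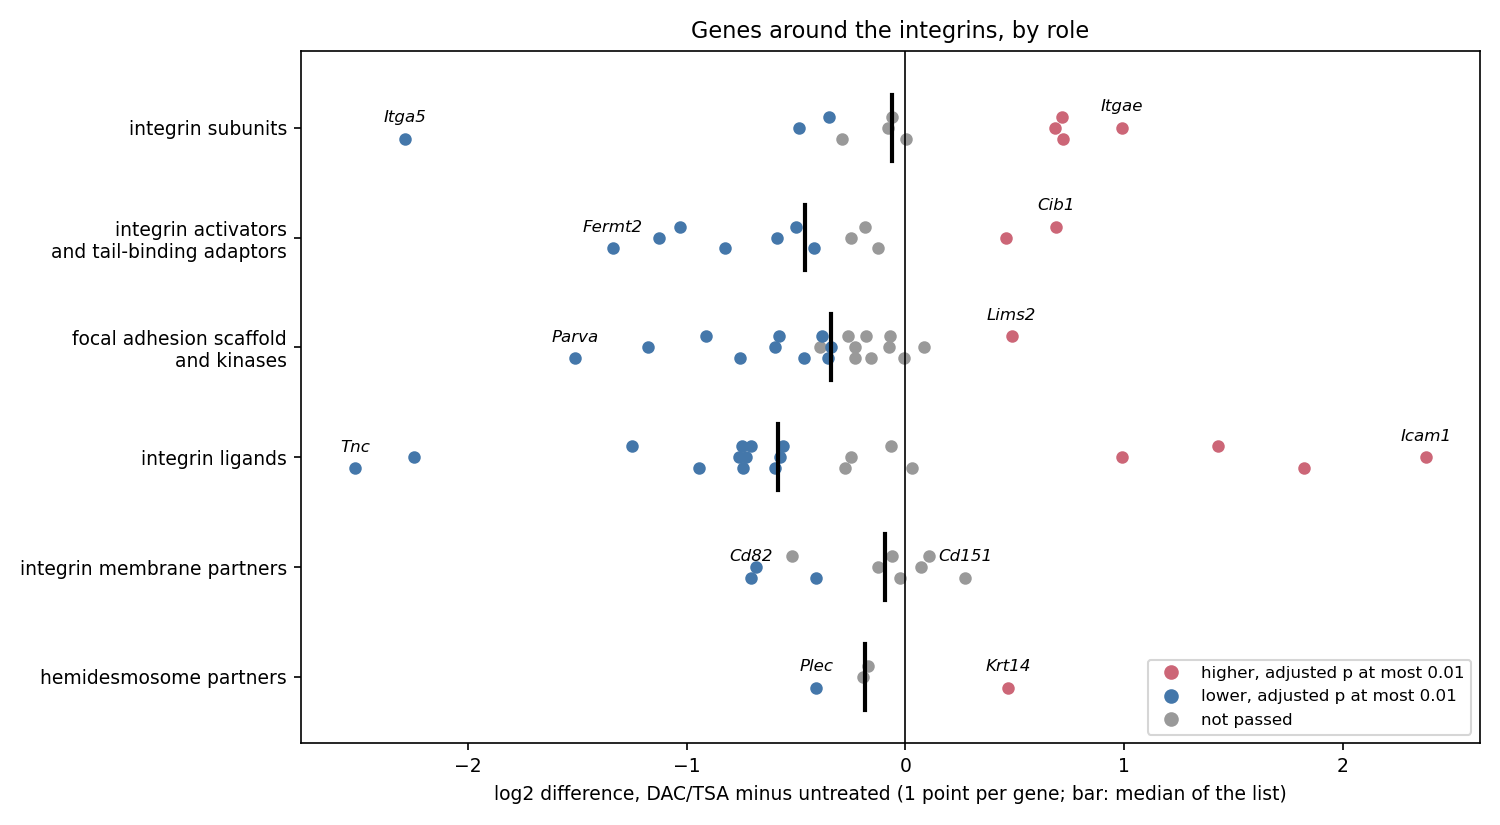
Log2 difference (DAC/TSA minus untreated, horizontal axis) of each measured gene of 6 lists, 1 point per gene, coloured by call, with the list median as a vertical bar. The medians of the ligands (-0.58), of the activators and adaptors (-0.46) and of the focal adhesion genes (-0.34) lie left of 0, while that of the subunits themselves is -0.06.

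Among integrin ligands, 20 of 39 were measured, with 12 lower, 4 higher and 4 not passed (median -0.58). Over all genes 21.4% were lower and 22.5% higher. Tnc, the matrix glycoprotein tenascin C, was lowest, at 5.72-fold lower (8.78 ± 0.10 to 6.27 ± 0.08, adjusted p = 2.21e-08), and its second probe differed by -2.26. The treated Tnc signals were detected but close to the detection floor. The Tnc difference was -2.52 as reported and -2.99 with neqc background correction. Fn1, fibronectin and so the ligand of the receptor that contains the Itga5 chain, read 11.40, 11.55 and 11.61 and then 10.87, 10.999 and 10.97. It was 1.49-fold lower (adjusted p = 3.35e-04), while its 2 dimmer probes differed by -0.21 and -0.11 and did not pass. The Fn1 call was lost with median scaling (-0.52, adjusted p = 0.0548).

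The 4 ligand genes that rose were Icam1, Lama5, Lamb3 and Ccn2, the last 3, like Lamc1 and Lamb2, being named after their values were seen. Icam1, the adhesion molecule bound by leukocyte integrins, read 6.14, 6.13 and 6.27 and then 8.75, 8.48 and 8.47, a 5.21-fold rise (95% confidence interval 4.48 to 6.05, adjusted p = 5.20e-08). Its untreated signals were detected but close to the detection floor, which limits its fold. The Icam1 difference was 2.38 as reported and 2.88 with neqc background correction. The laminin chains Lama5 (3.54-fold, adjusted p = 1.28e-07) and Lamb3 (at least 1.82-fold, not detected in untreated cells, adjusted p = 6.24e-06) belong to ligands of the Itga3 receptor. Lamb3 was kept only through the DAC/TSA arrays, which fixed its direction. The untreated signal of Lama5 (5.92 ± 0.10) was detected but close to the detection floor, which limits its fold. The other laminin chains measured did not rise: Lamc1 was 1.67-fold lower (adjusted p = 6.02e-04) and its second probe 1.76-fold lower, and Lamb2 differed by -0.28 and did not pass (adjusted p = 0.0433). The matricellular gene Ccn2 rose 1.98-fold (adjusted p = 3.56e-06).

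Of the activators and tail-binding adaptors, 12 of 17 were measured, with 7 lower and 2 higher (median -0.46). The shares over all genes were 21.4% lower and 22.5% higher. Fermt2, the kindlin that binds beta tails beside talin, read 10.99, 11.44 and 11.32 and then 9.71, 9.96 and 10.07, which is 2.53-fold lower (adjusted p = 1.59e-05). Tln1, a talin gene, was close to the detection limit and differed by -0.12 (95% confidence interval -0.36 to 0.11, adjusted p = 0.343). The other talin gene, Tln2, was 1.34-fold lower (adjusted p = 0.00318) and was named after its values were seen. Cib1, a calcium-binding protein that binds the tail of the Itga2b chain, was 1.61-fold higher (adjusted p = 1.11e-04). The other gene called higher, Itgb1bp1, which encodes the Itgb1 tail ligand ICAP, had 2 probes in opposite directions, 0.46 for the brighter (adjusted p = 0.00268) and -0.53 for the dimmer (adjusted p = 0.00377). The changes of the 2 Itgb1bp1 probes differed by 0.98 (exact permutation p = 0.1, the smallest possible). Itgb1bp1 was singled out after its values were seen.

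In the focal adhesion scaffold, 21 of 29 genes were measured, with 10 lower, 1 higher and 10 not passed (median -0.34). Over the whole array 21.4% of genes were lower and 22.5% higher. Parva, the actin-binding parvin, read 11.70, 11.59 and 11.48 and then 10.18, 9.99 and 10.05, which is 2.85-fold lower (adjusted p = 6.04e-07). Ilk, the pseudokinase that binds Parva, was 1.27-fold lower (adjusted p = 0.00466), a call that was lost without untreated replicate 2 (adjusted p = 0.0195) or 3 (0.0187) and without DAC/TSA replicate 1 (0.0146) or 2 (0.0251), as well as with median scaling (0.191), neqc background correction (0.0119) and the mean of its probes (0.0115). Lims2, the third partner of that complex, was the gene that rose, 1.40-fold (adjusted p = 0.00286), and it did not pass without untreated replicate 2 (0.0123) or 3 (0.0143) or DAC/TSA replicate 2 (0.0132). Vcl, vinculin, read 10.88, 11.57 and 11.53 and then 10.59, 11.04 and 11.17. Replicate 1 was lowest in each group and the groups overlapped, and the difference of -0.39 did not pass (adjusted p = 0.118), whereas it did with the replicate number as a block (adjusted p = 8.32e-04) or without untreated replicate 1 (-0.61, adjusted p = 0.00346). Ptk2, the focal adhesion kinase, had no named detected probe and was not analysed here.

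Among the membrane partners, 10 of 12 were measured and 3 were lower, while none was higher (median -0.09). For all genes the shares were 21.4% lower and 22.5% higher. The tetraspanin Cd82 was 1.63-fold lower (adjusted p = 7.68e-05), a call lost with median scaling (-0.64, adjusted p = 0.0125). Cd9, another tetraspanin (1.61-fold, adjusted p = 4.49e-05), and Cd47, a partner of Itgav receptors (1.33-fold, adjusted p = 0.00440), were the other two and were named after their values were seen.

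Of the hemidesmosome partners of Itgb4, 4 of 5 were measured, with 1 lower, 1 higher and 2 not passed (median -0.18). The shares of all genes were 21.4% lower and 22.5% higher. Dst (-0.19, adjusted p = 0.0526) and Col17a1 (-0.17, adjusted p = 0.187) did not pass and were named after their values were seen. Plec, the plakin that links the Itgb4 tail to keratin, was 1.33-fold lower (adjusted p = 0.00402) and its second probe differed by -0.75. The Plec call was lost without untreated replicate 2 (0.0101) or 3 (0.0106) and without DAC/TSA replicate 2 (0.0218) or 3 (0.0188), as well as with median scaling (0.0332) and neqc background correction (0.0106). Krt14, a basal keratin, was not detected in untreated cells and lay at 5.80 ± 0.08 on the DAC/TSA arrays, at the limit of detection, with an adjusted p of 0.00437 and no bound on the fold above 1. Its call was lost when any array other than untreated replicate 1 was left out (adjusted p from 0.0129 to 0.0209) and with median scaling (0.0157). Of 6 epithelial markers 3 were measured, Krt14 itself with Krt8 and Krt18, and of 9 lung epithelial markers 2, Aqp5 and Napsa. All of these were higher, where 22.5% of all genes were called higher. The summed linear signal of the 3 epithelial markers was 156 to 166 in untreated and 652 to 788 in treated cells. Epcam, Cdh1 and Krt5, and lung markers such as Sftpc and Scgb1a1, had no named detected probe here and so gave no level. Krt18, Krt14 and Napsa were detected on treated arrays only, so that their direction was fixed by the detection filter, while Krt8 and Aqp5 were detected on all arrays. The 3 endothelial markers measured moved both ways, Egfl7 and Plvap being higher and Flt1 lower. The part of these marker genes in the results for the integrin genes was not tested.

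The calls for Itga3, Itga5 and Itgb7, and the size of the Itgbl1 difference, changed little with the processing. Over the 15 alternatives the difference ran from 0.61 to 0.77 for Itga3, from -2.40 to -2.01 for Itga5, from 0.66 to 0.79 for Itgb7 and from -3.20 to -2.91 for Itgbl1. That of Itgav ran from 0.01 to 0.86, the lower end being the mean of its 2 probes.

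**Figure D4:**
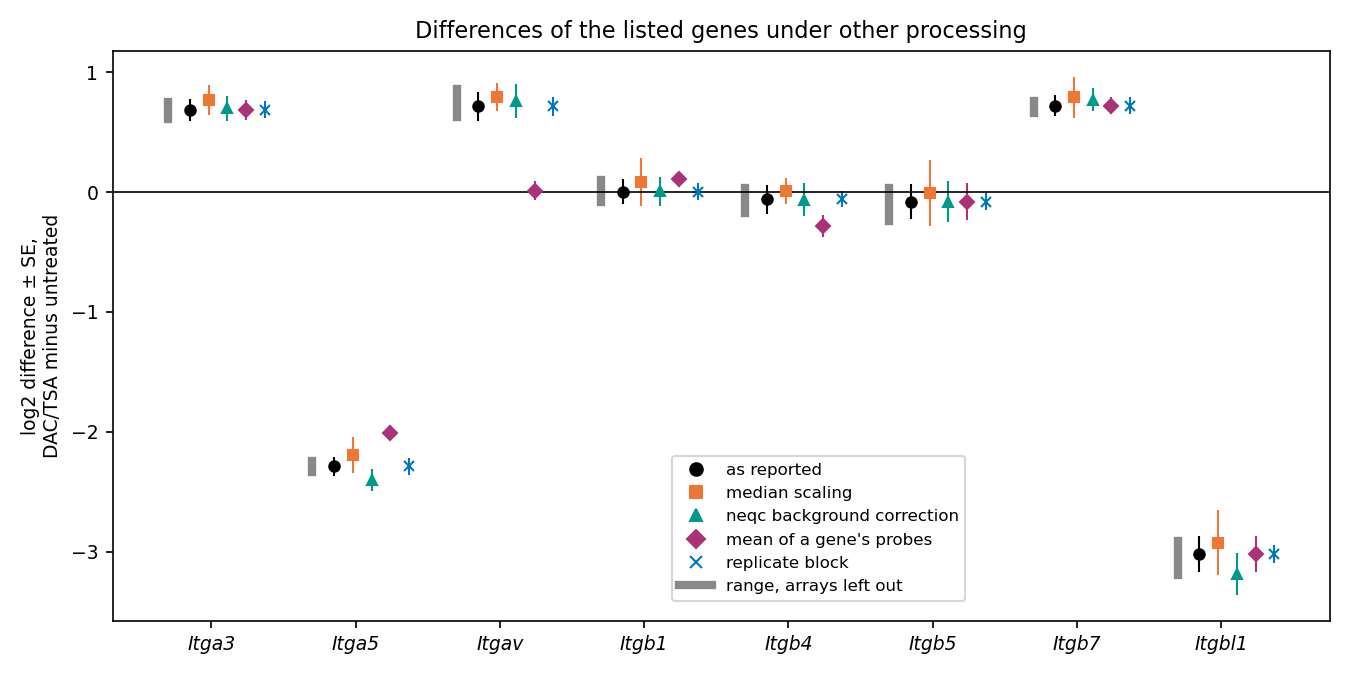
Log2 difference ± SE (DAC/TSA minus untreated, vertical axis) of each listed gene as reported (black circle) and under 4 other ways of processing, with the range of values when arrays were left out as a grey bar. The estimates of Itga3, Itga5, Itgb7 and Itgbl1 stay on their side of 0, Itgav drops to 0.01 with the mean of its probes, and Itgb1, Itgb4 and Itgb5 lie around 0 except for the mean of the Itgb4 probes at -0.28.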

How the data were processed

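RNA from 3 untreated and 3 DAC/TSA cultures of TC-1/A9 cells was measured on bead arrays. The authors extracted bead summary signals with BeadStudio and deposited linear intensity values that were neither normalised nor background-corrected. Each deposited intensity is accompanied by a detection p-value, which the authors' software derives from control beads. A second deposited table holds log2 values of 16148 probes, which differed from those computed here by at most 0.0125 and served as an alternative.

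Intensities of 45281 probes were quantile-normalised and log2-transformed, and 17445 probes with a detection p-value of at most 0.01 on at least 1 array were kept. Of these, 13943 had 1 gene symbol in the platform annotation, 7 had several and 3495 had none. Groups were compared with limma 3.58.1 (lmFit and eBayes, R 4.3.3) without a block, with Benjamini-Hochberg adjustment over the kept probes and a threshold of 0.01. Folds against a group in which a probe was not detected on any array are lower bounds: the mean of the detected group was set against the mean, per array, of the lowest detected signal or the probe's own if higher. The script was tested on simulated data. Changes of 2 probes of a gene were compared with an exact permutation test over arrays. Promoters came from RefSeq (GRCm38.p6) and were searched with Python 3.11.15.

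Samples were grouped by their titles and treatment labels. Deviations from the group means correlated at r = 0.63, 0.24 and 0.36 between untreated and DAC/TSA arrays of the same number (1, 2 and 3). The numbers come from the sample titles. They were not taken as a pairing in the reported fits, which have no block. A replicate block was run as an alternative. The crossed pairs of replicates 2 and 3 correlated as well (0.37 and 0.38), and what a number shares is not stated. Without separate statement of the cultures behind each number, p-values measure the spread between these samples.

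The text names every member, the other integrin subunits, from each pathway list the called genes with the largest rise and fall, Tln1, Fermt2, Ptk2, Ilk, Vcl and Fn1 whatever their values, and the 3 genes nearest to Itgbl1. The members and lists were chosen with earlier results of these data known. Alternatives were median scaling, neqc background correction, the deposited log2 values, a filter of at least 3 arrays, no filter, the mean of a gene's probes, a replicate block, a robust trended fit and the omission of each array.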

Additional observations from a re-analysis of the deposited data

How the results depend on the processing

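In 15 alternatives, the integrin genes of the set called higher numbered 3 and those called lower 1, except that 2 were higher when the probes of a gene were averaged, where Itgav lost its call (0.01, adjusted p = 0.908). Itga3, Itga5 and Itgb7 kept their direction and side of the threshold throughout. Genes without a call changed sign around 0: Itgb4 differed by 0.0090 with median scaling, and with 1 array left out Itgb4 ranged from -0.17 to 0.036, Itgb1 from -0.079 to 0.096 and Itgb5 from -0.24 to 0.036.

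Of the pathway genes, 17 were lower with median scaling in place of 33, and with arrays left out 5 to 9 were higher and 26 to 36 lower, the 5 being without untreated replicate 3. Over all genes, 17.2% to 26.6% were higher and 16.1% to 24.9% lower with arrays left out. Median scaling moved the median of all genes to 0.09 and called 1219 genes higher and 776 lower. Leaving out replicate 1 of both groups was added after seeing the data and turned the sign of Itgb1 (-0.044). With the replicate block, 9 pathway genes were higher and 37 lower, where 29.4% of all genes were higher and 27.3% lower. Itga2b (adjusted p = 0.00348) and Vcl (adjusted p = 8.32e-04) passed with the block, which changed no call of the set. Over the 20 other named genes, 260 of 300 comparisons kept direction and side, 32 lost the call, 8 gained one and 0 turned. Signals near the detection floor (5.73 to 5.84 on the log2 scale) limit Itgae, Itgb6, Tln1, Krt14, Cp, Adcy8, Icam1, Tnc, Lama5 and Lamb3.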
